A study of Mus musculus with 2 samples.

Results

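Iron enters the body through the absorptive cells of the small intestine, and the 10 genes described here make the machinery of that step: Slc11a2, Cybrd1, Slc40a1, Heph, Fth1, Ftl1, Tfrc, Ireb2, Aco1 and Epas1. Every probe set annotated to 1 of these genes was taken, which gave 26 of the 45101 probe sets on the array, for 10 of the 19324 genes that its annotation names. Of these, 20 name 1 of the 10 genes alone, 3 name Ftl1 together with other genes, and 3 are control probe sets that the manufacturer placed along the Tfrc messenger. No measured value entered the choice of probe sets for these genes, but the genes themselves were chosen with earlier results of these data known.

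The data are 2 Affymetrix MOE430_2 arrays, 1 per diet. The EPA&DHA array was hybridised with RNA pooled from 11 mice, whose feed had 44% of its lipids replaced by a concentrate of the marine fatty acids EPA (eicosapentaenoic acid, 6% of the concentrate) and DHA (docosahexaenoic acid, 51%). The control array carried RNA pooled from 10 mice fed the same high-fat diet with flaxseed oil, rich in the plant fatty acid ALA, as its only lipid. All mice were male C57BL/6J without any engineered allele, 4 months old, kept for 4 weeks on a semisynthetic diet of 20% fat by weight, with 12 fed each diet before RNA quality control. The labels call the tissue complete small intestine and the study's methods speak of scrapings, so each pool averages several cell types. The methods also have the piece begin some centimetres below the stomach and run to the caecum, which leaves the proximal duodenum out of both pools. With 1 pool per diet there is no replicate: no p-value or error between animals can be had, and each ratio compares these 2 pools. In such bulk RNA, fewer cells of a type and less RNA per cell cannot be told apart.

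As background, dietary iron is reduced at the brush border by Cybrd1 and carried into the cell by Slc11a2, also known as DMT1. Inside the cell it is stored in ferritin, built from the heavy chain Fth1 and the light chain Ftl1, or leaves through ferroportin, Slc40a1, at the base of the cell, where Heph oxidises it for loading onto transferrin. Its control is known at the messenger and at the gene. The iron regulatory proteins, encoded by Aco1 and Ireb2, bind hairpins called iron-responsive elements in messengers such as those of ferritin, ferroportin, Epas1 and Tfrc when iron is scarce, which blocks translation of ferritin and protects the Tfrc messenger from decay. Epas1 encodes HIF-2alpha, an oxygen-sensitive transcription factor that drives Cybrd1, Slc11a2 and Slc40a1 in the gut.

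The levels of the iron genes differed little between the 2 pools. Signals are MAS 5.0 values in arbitrary units, and a probe set was kept when its mean log2 signal over both pools was among the top 54% of non-control probe sets, which put the edge at a mean signal of 50.83. Of the 20 probe sets that read 1 iron gene alone, 18 were kept, and 1 of the 18 stood 1.5-fold or more above control on EPA&DHA, while 0 stood as far below. Among all 24320 kept probe sets, 8.06% passed this fold upward and 8.89% downward. These shares include dim probe sets, whose ratios scatter more. The robust SD of the ratio was 0.62 over the 6080 dimmest kept probe sets and 0.24 over the 6080 brightest. The share among the iron genes rests on 1 probe set and was not compared with probe sets of like signal, so it cannot be ranked against this background. As a yardstick for each log2 ratio, the robust SD of the ratios of the 500 probe sets nearest in mean signal was used, called the local SD here. It describes the scatter between the 2 arrays and is not an error between mice. The ratio was smaller than the local SD for 15 of the 18 probe sets, and larger for 1 probe set each of Fth1, Tfrc and Aco1. Past 2 local SDs lay 2 of them, those of Fth1 and Aco1. Counted from the median ratio of the same 500 probe sets in place of 0, a choice made after the values were seen, 14 lay within 1 local SD, and the 4 beyond it were these 3 and a second probe set of Tfrc, with only the Aco1 set, at 3.79, beyond 2.

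With each gene read by its brightest kept probe set, 9 of the 10 genes had a value, since Ftl1 has no probe set of its own. Their log2 ratios ran between -0.43 for Fth1 and 0.86 for Aco1, with 7 above 0 and 2 below. The median was 0.17, against -0.05 over all 11706 genes read the same way. This median is the value of Cybrd1, whose kept probe set has a weak signal. Over the 18 kept probe sets of the iron genes the median was 0.075, against -0.036 over all 24320 kept probe sets. Of the 9 genes, 1 (Aco1) passed 1.5-fold upward and 0 downward, where the shares of all genes were 6.18% upward and 7.94% downward.

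**Figure D1:**
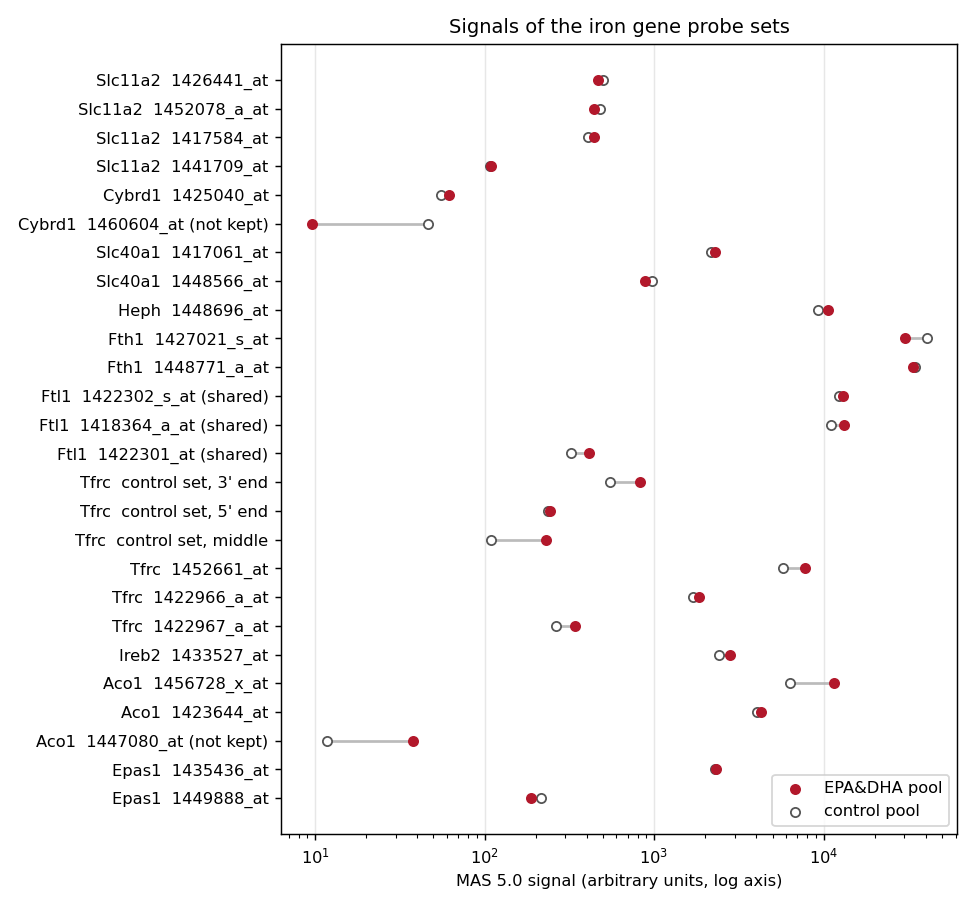
Signal of every probe set annotated to an iron gene (arbitrary MAS 5.0 units, log axis), filled points for the EPA&DHA pool and open points for the control pool, each a single array. The points of most probe sets nearly coincide, and the widest gaps lie at the 2 probe sets below the filter, at 1 probe set of Aco1 and at a control probe set of Tfrc.

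Slc11a2, the carrier of ferrous iron at the brush border, was read by 4 kept probe sets, and none set the diets apart. Probe set 1426441_at gave 466.1 on EPA&DHA and 498.2 on control, a log2 ratio of -0.10 (local SD 0.31). Probe set 1452078_a_at gave 441.8 on EPA&DHA and 478.5 on control (-0.12, local SD 0.32). In the other direction, 1417584_at gave 442.0 on EPA&DHA and 410.3 on control (0.11, local SD 0.33), and 1441709_at gave 109.5 and 107.5 (0.03, local SD 0.51). The ratios of the 4 probe sets thus spanned 0.22 log2 units around 0.

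Cybrd1, the ferric reductase that works beside Slc11a2, had a weak signal. Its kept probe set, 1425040_at, read 61.68 on EPA&DHA and 55.02 on control, a log2 ratio of 0.16 within a local SD of 0.70. The other, 1460604_at, lay below the filter with 9.601 on EPA&DHA and 46.37 on control. There the log2 ratio was -2.27 beside a local SD of 1.64, and the probe set that was kept did not share its direction.

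Basolateral export was likewise close in the 2 pools. Slc40a1, ferroportin, the iron exporter, gave 2287 on EPA&DHA and 2179 on control with 1417061_at, a log2 ratio of 0.07 (local SD 0.23). Its second probe set, 1448566_at, gave 880.8 on EPA&DHA and 969.1 on control (-0.14, local SD 0.27), so the pair of probe sets fell on either side of 0. Heph, hephaestin, the copper enzyme that oxidises iron as it leaves, read (1448696_at) 10598 on EPA&DHA and 9291 on control, 1.14-fold, with a log2 ratio of 0.19 inside its local SD of 0.25. Macrophages also export iron through Slc40a1. Of 13 macrophage markers with a probe set of their own, 11 were kept, while Cd163 and Vsig4 lay below the filter. Of the 11, 0 were 1.5-fold apart in either direction, 3 were above 0 and 8 below. Their summed signal was 27107 on EPA&DHA and 32198 on control. Most of both sums, and of the gap between them, came from Cd74 alone (20652 on EPA&DHA and 25736 on control). The part of these cells in the Slc40a1 values was not tested.

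In iron storage, the probe sets of the ferritin heavy chain read lower on EPA&DHA and those of the light chain higher, except that 1 of the 2 heavy-chain probe sets changed side under other scalings. Fth1, the heavy chain with the ferroxidase centre, read 30166 on EPA&DHA and 40582 on control with 1427021_s_at. That signal was 1.34-fold lower on EPA&DHA, a log2 ratio of -0.43 (local SD 0.20), and 14.88% of all kept probe sets had a lower ratio. Its other probe set, 1448771_a_at, read 33629 on EPA&DHA and 34705 on control, a log2 ratio of -0.05 that turned to 0.17 under quantile normalisation and to 0.02 under a loess fit. The 500 probe sets nearest to either in signal had a median log2 ratio of -0.09, and over the settings tried the first Fth1 probe set stayed below 0, between -0.43 and -0.23. Counted from that median, the first probe set lay at -1.71 local SDs and the second at 0.25. Control probe sets of like brightness were also lower on EPA&DHA at the 3' end of Gapdh (24693 against 33255) and Actb (37990 against 48011). Apob, as bright, was level with its brightest probe set (30280 against 29421), but its other kept probe set gave a log2 ratio of -0.50. Of the 16 kept markers of absorptive enterocytes, many of them bright, 4 were above 0 and 12 below. Whether a difference shared by bright probe sets has a part in the Fth1 values was not tested.

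Ftl1, the light chain that helps iron mineralise in the shell, was read only through 3 probe sets that also name its pseudogene copy Ftl1-ps2. Probe set 1422302_s_at gave 13063 on EPA&DHA and 12256 on control (log2 ratio 0.09, local SD 0.23), and 1418364_a_at gave 13178 on EPA&DHA and 11041 on control (0.26, local SD 0.23). The last, 1422301_at, which names Mir692 copies as well, gave 413.1 on EPA&DHA and 325.6 on control (0.34, local SD 0.30). All 3 were above 0 under each of the 4 scalings compared (trimmed mean, median centring, quantile and loess) and none reached 1.5-fold, and how much of the signal came from the pseudogene cannot be told from them.

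Tfrc, the transferrin receptor, which takes up iron from the blood side and is abundant in dividing cells, was read by 6 probe sets, and 6 of the 6 read higher on EPA&DHA, under each of the same 4 scalings. The main probe set, 1452661_at, gave 7819 on EPA&DHA and 5770 on control, 1.35-fold and a log2 ratio of 0.44 (local SD 0.24). Smaller ratios came from 1422966_a_at, with 1835 on EPA&DHA and 1699 on control (0.11, local SD 0.26), and from 1422967_a_at, with 344.0 and 264.4 (0.38, local SD 0.39). None of these 3 reached 1.5-fold, and their mean log2 ratio was 0.31.

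The 3 control probe sets of Tfrc sit along its messenger. The one at the 3' end gave 828.5 on EPA&DHA and 546.3 on control, 1.52-fold (log2 ratio 0.60, local SD 0.27), the one in the middle gave 229.1 and 108.8, 2.11-fold (1.07, local SD 0.50), and the one at the 5' end gave 243.8 and 237.8 (0.04, local SD 0.40). The 3 ratios thus differed, with the largest in the middle and not at an end. The sets in the middle and at the 5' end were dimmer and had the wider local SDs. The signal at the 3' end over that at the 5' end was 3.40 on EPA&DHA and 2.30 on control for Tfrc, against 0.793 and 0.932 for Gapdh and 1.16 and 1.22 for Actb, 2 housekeeping messengers with such sets. Whether RNA integrity has a part in the Tfrc values was not tested.

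Markers of cells that express Tfrc strongly stood as follows. Of 13 markers of dividing crypt cells, all kept, 1 passed 1.5-fold upward on EPA&DHA and 0 downward, 8 were above 0, and their summed signal was 18587 on EPA&DHA and 16540 on control. The higher one was Olfm4, a marker of crypt base cells, with 5903 on EPA&DHA and 3587 on control. The gap of Olfm4 was wider than that between the 2 sums, so the other markers summed lower on EPA&DHA. The stem cell marker Lgr5 was the lowest of the list by its brightest probe set, at a log2 ratio of -0.39. Its other kept probe set gave 1.12. The median log2 ratio of the 13 markers was 0.03 with the brightest probe set and 0.36 with the mean of each gene's probe sets. Of 8 red cell markers with a probe set of their own, 2 were kept, both haemoglobin genes, with summed signals of 110 on EPA&DHA and 124 on control, and Alas2 lay at 5.742 on EPA&DHA and 3.175 on control, below the filter. The part of dividing cells in the Tfrc values was not tested.

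**Figure D2:**
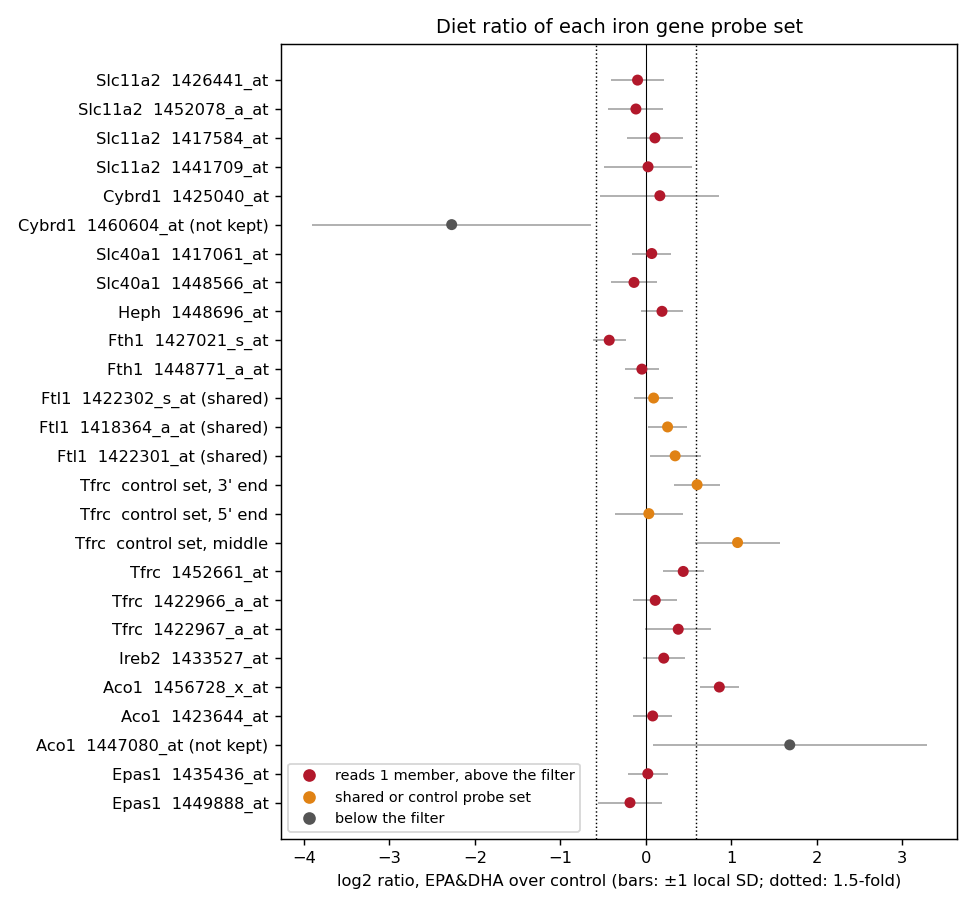
Log2 ratio of EPA&DHA over control for each probe set of an iron gene, with bars of 1 local SD on either side and dotted lines at 1.5-fold. Most points lie within 1 bar of 0, the 6 Tfrc points all lie to the right of 0, and the 2 grey points below the filter carry the widest bars.

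The 2 iron sensors were both above 0, to unequal extents. Ireb2, which makes iron regulatory protein 2, the form that is degraded when iron is plentiful, read (1433527_at) 2808 on EPA&DHA and 2427 on control, a log2 ratio of 0.21 within its local SD of 0.25. Aco1 makes iron regulatory protein 1, which acts as an aconitase when it holds an iron-sulphur cluster and binds RNA when it does not. Probe set 1456728_x_at gave 11516 on EPA&DHA and 6340 on control, 1.82-fold and a log2 ratio of 0.86 (local SD 0.23), with 96.44% of kept probe sets below it. This was the single kept probe set past 1.5-fold among the iron genes, and its suffix marks probes that may also bind other transcripts.

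The second kept probe set of Aco1 did not repeat that size. It, 1423644_at, gave 4295 on EPA&DHA and 4061 on control (log2 ratio 0.08, local SD 0.23), which left 0.78 log2 units between the 2. For comparison, the log2 ratio of the brightest minus that of the next probe set had an SD of 0.53 over the 5328 genes with at least 2 kept probe sets. Another, 1447080_at, lay below the filter with 38.06 on EPA&DHA and 11.83 on control (1.69, local SD 1.60).

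Epas1, the oxygen-sensitive factor, was level between the pools. Probe set 1435436_at gave 2326 on EPA&DHA and 2287 on control (log2 ratio 0.02, local SD 0.23), and 1449888_at gave 188.7 on EPA&DHA and 214.5 on control (-0.18, local SD 0.38). The messenger level says nothing of the HIF-2alpha protein, which is mainly set by its decay.

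**Figure D3:**
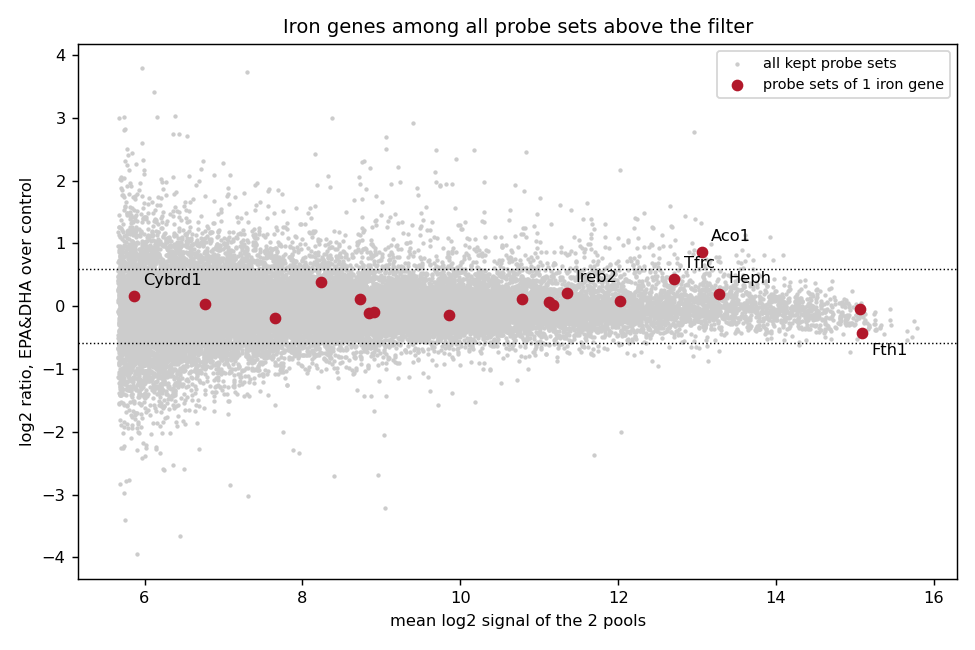
Log2 ratio of EPA&DHA over control against the mean log2 signal of both pools for all 24320 kept probe sets (grey) and the 18 kept probe sets of 1 iron gene (red), with dotted lines at 1.5-fold. The grey cloud narrows toward bright signals, where the brightest Fth1 probe set lies toward the lower side and 1 Aco1 probe set lies above the upper dotted line.

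Hypoxia factors such as HIF-2alpha bind the core letters ACGTG or GCGTG in DNA, and the stretches before the starts of the iron genes were searched for these letters, since Epas1 encodes such a factor. RefSeq promoters (GRCm38.p6) were at hand for 6 of the 10 genes, in 8 windows for separate starts, and the 250 bases before each start were searched on both strands. On the printed strand the reverse forms are CACGT and CACGC, and overlapping matches count separately. A core was found in 5 of the 8 windows, for 4 of the 6 genes, namely Cybrd1, Ftl1, Tfrc and Fth1. Of all 32851 windows of the same length, 38.6% held at least 1 core and 16.7% at least 2. A match is a description of the letters and not a site of binding. Shown are Tfrc, which had the largest number of probe sets, all higher (the upstream of its 2 starts, chr16:32608646-32608895, plus strand), Cybrd1, a known HIF-2alpha target in the gut (chr2:71117804-71118053, plus strand), and Fth1, whose brightest probe set was lower (the downstream of its 2 starts, chr19:9982396-9982645, plus strand), each ending at the base before the start, with cores in capitals.
Tfrc: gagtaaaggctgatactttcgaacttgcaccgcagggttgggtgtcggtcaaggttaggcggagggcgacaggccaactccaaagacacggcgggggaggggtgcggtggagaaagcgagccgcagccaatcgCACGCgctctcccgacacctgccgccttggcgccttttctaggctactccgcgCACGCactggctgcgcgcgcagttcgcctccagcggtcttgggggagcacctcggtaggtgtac
Cybrd1: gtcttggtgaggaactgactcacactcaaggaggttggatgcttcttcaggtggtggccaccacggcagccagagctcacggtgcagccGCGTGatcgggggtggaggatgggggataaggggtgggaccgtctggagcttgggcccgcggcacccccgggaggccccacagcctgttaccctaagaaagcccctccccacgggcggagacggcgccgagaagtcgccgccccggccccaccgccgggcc
Fth1: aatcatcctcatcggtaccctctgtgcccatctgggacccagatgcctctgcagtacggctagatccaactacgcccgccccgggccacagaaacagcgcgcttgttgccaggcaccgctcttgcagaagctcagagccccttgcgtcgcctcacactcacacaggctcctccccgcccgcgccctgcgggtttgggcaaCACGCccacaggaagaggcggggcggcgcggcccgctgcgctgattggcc
In this Tfrc window CACGC begins 117 and 64 bases before the start, and the window of the other Tfrc start, 226 bases downstream, held 3 cores. The Cybrd1 window has GCGTG 161 bases before its start, and in the Fth1 window CACGC begins 50 bases before, while the window of the other Fth1 start held 0 cores, as did those of Aco1 and Ireb2.

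Around the 10 genes, 111 further genes of iron, haem and oxygen handling were set out in 10 lists, and 91 had a kept probe set. Of these 91, 10 (11.0%) were higher by 1.5-fold or more on EPA&DHA and 6 (6.59%) were lower, with a median log2 ratio of 0.05. These shares lie beside the 6.18% (higher) and 7.94% (lower) of all genes.

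In haem handling, the 2 related transporters of the Flvcr family were both higher. Flvcr1, first described as a haem exporter of the cell surface, read 13386 on EPA&DHA and 5326 on control, 2.51-fold (log2 ratio 1.33, local SD 0.24), and its second probe set gave 0.67. Flvcr2 read 255.3 on EPA&DHA and 137.3 on control, 1.86-fold (0.89, local SD 0.42). They were the 2 genes past 1.5-fold among 8 kept genes of haem uptake, breakdown and export, and 0 were lower. Slc46a1, which also carries haem but is best known as the intestinal folate carrier, was level at 5596 on EPA&DHA and 5398 on control. Hmox1, the inducible haem oxygenase, stayed below the filter at 28.81 on EPA&DHA and 31.67 on control.

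Haem synthesis had 1 gene of 7 at least 1.5-fold lower and 0 higher. Ppox, an enzyme of the late mitochondrial steps, read 259.6 on EPA&DHA and 655.4 on control, 2.52-fold lower on EPA&DHA (log2 ratio -1.34, local SD 0.32), with -0.47 on its second probe set. Alas1, the first and rate-limiting enzyme, read 3902 on EPA&DHA and 3776 on control (0.05), with 0.61 on its second probe set.

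Among the other ferrireductases and ferroxidases, 1 of 6 kept genes was past 1.5-fold. Steap3, the endosomal ferrireductase that works with Tfrc, read 90.22 on EPA&DHA and 35.97 on control (log2 ratio 1.33, local SD 0.76), but its other kept probe set gave -0.27. Slc39a8, a carrier of zinc, manganese and iron, was the 1 of 6 other iron carriers past 1.5-fold, at 260.9 on EPA&DHA and 170.6 on control (0.61, local SD 0.41), with 1.34 on its second probe set. Its close relative Slc39a14 read 3247 on EPA&DHA and 3185 on control (0.03) with its brightest probe set, the highest of 4 whose log2 ratios reached down to -0.58.

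Ferritin handling and iron-sulphur cluster assembly held 5 and 12 kept genes, and 0 of either list were 1.5-fold apart. Ncoa4, the receptor that delivers ferritin for breakdown, read 5696 on EPA&DHA and 5197 on control. In iron-sulphur assembly the ratios ran between -0.43 for Isca2 and 0.48 for Nfu1, with 6 genes above 0 and 6 below. Fbxl5, the iron-sensing subunit that marks iron regulatory proteins for degradation, read 2938 on EPA&DHA and 2924 on control. In its list of 7, Rbx1, a subunit of several ubiquitin ligases, was the only one past 1.5-fold, at 74.42 on EPA&DHA and 43.74 on control (log2 ratio 0.77), within its local SD of 0.78.

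Of the messengers known to bear an iron-responsive element, 5 of 8 listed had a kept probe set of their own: Fth1, Slc40a1, Epas1, Tfrc and Slc11a2. Their median log2 ratio was 0.02, and 0 were 1.5-fold apart in either direction. Of all genes, 6.18% were higher and 7.94% lower by this fold. The list joins messengers such as that of ferritin, where binding blocks translation, with that of Tfrc, where it protects the messenger. Their joint median therefore does not read the activity of the iron regulatory proteins, which was not tested.

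In oxygen sensing, 1 of 12 kept genes was at least 1.5-fold lower, Arnt2, a partner of hypoxia factors mostly known from nerve tissue, with 78.56 on EPA&DHA and 131.2 on control (log2 ratio -0.74, local SD 0.51). Hif1a, which encodes the sister factor of HIF-2alpha, read 8025 on EPA&DHA and 5568 on control, 1.44-fold (0.53, local SD 0.24), and its 3 kept probe sets lay between 0.29 and 0.94. Egln1 and Egln3, enzymes that mark hypoxia factors for decay, were close between the pools, with log2 ratios of 0.11 and 0.16.

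The 15 kept hypoxia-responsive genes included 4 that were higher by 1.5-fold or more and 2 that were lower, around a median of 0.05. The shares of all genes past this fold were 6.18% upward and 7.94% downward. Ndrg1, a stress-responsive protein, read 4812 on EPA&DHA and 3043 on control (log2 ratio 0.66, local SD 0.20), and its 5 kept probe sets lay between 0.66 and 0.95. Pdk1, a kinase that holds back pyruvate oxidation, read 1317 on EPA&DHA and 694.6 on control (0.92, local SD 0.27), with the lowest of its 3 probe sets at 0.12. Bnip3, a mitophagy receptor, gave 2729 on EPA&DHA and 1780 on control (0.62), and Vegfa, the vascular growth factor, gave 1032 and 663.4 (0.64), with -0.13 on its second probe set. The 2 lower genes were Adm, adrenomedullin, with 92.75 on EPA&DHA and 156.8 on control (-0.76, and -1.20 on its second probe set), and Pfkfb4, a regulator of glycolysis, with 1973 and 3021 (-0.61). The list thus held genes on both sides, with more past the fold upward than downward. Several of its members also respond to other signals, and whether hypoxia factors have a part in these values was not tested.

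In systemic iron control, 1 of 13 kept genes was higher by 1.5-fold or more and 2 were lower, with a median log2 ratio of -0.13. Hamp, hepcidin, the liver hormone that removes ferroportin from the cell surface, had a weak signal of 67.84 on EPA&DHA and 126.3 on control (log2 ratio -0.90, local SD 0.57), with -0.89 on its second probe set. Its copy Hamp2 read 34.26 on EPA&DHA and 97.39 on control (-1.51, local SD 0.75), and because the 2 genes are close copies their probe sets may share transcripts. Bmp2, a growth factor that induces hepcidin in the liver, read 1295 on EPA&DHA and 703.9 on control (0.88, local SD 0.27).

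**Figure D4:**
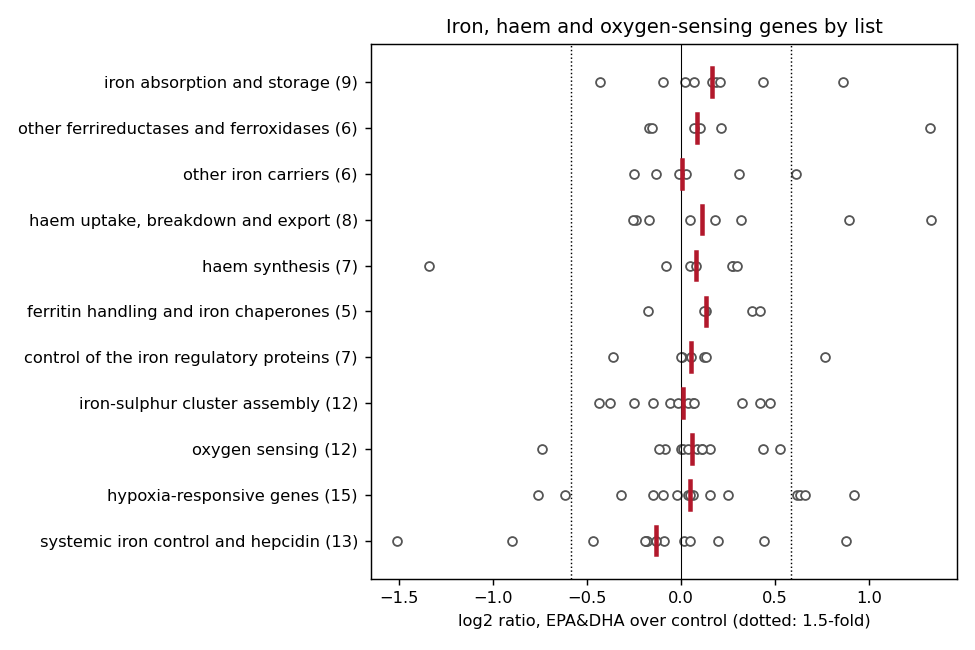
Log2 ratio of EPA&DHA over control for each kept gene of the iron, haem and oxygen-sensing lists, with the number of kept genes in brackets, red bars at the list medians and dotted lines at 1.5-fold. The medians lie between -0.13 and 0.17, and the points past the dotted lines fall on both sides.

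Markers of the cells and regions that carry the iron genes were read on the same arrays. All 16 markers of absorptive enterocytes with a probe set of their own were kept. Their summed signal was 439045 on EPA&DHA and 495435 on control, with a median log2 ratio of -0.10. Such markers do not tell complete small intestine from scrapings. In this list 1 gene passed 1.5-fold upward, the peptide carrier Slc15a1, with 4506 on EPA&DHA and 2553 on control. Iron absorption is mainly a task of the duodenum, whose proximal part was left out of both pools. Of 11 markers of duodenum and proximal intestine, 10 were kept and 0 were 1.5-fold apart, with summed signals of 152324 on EPA&DHA and 164033 on control (median -0.16). All 10 markers of the ileum with a probe set were kept, 1 was lower by 1.5-fold, Muc13 (-0.62, with -0.16 on its other probe set), and the sums were 87996 on EPA&DHA and 97819 on control (median 0.02). Of the kept proximal markers, 3 were above 0 and 7 below, and of the ileal markers 6 were above and 4 below. The part of regional make-up in the values of the iron genes was not tested.

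One list stood far from the others. Of 10 genes of the exocrine pancreas, 10 passed 1.5-fold upward on EPA&DHA by their brightest probe set, against 6.18% of all genes. Their median log2 ratio was 1.61, with summed signals of 16996 on EPA&DHA and 6230 on control. The ratios ran from Clps at 0.69, with 0.41 on its other kept probe set, to Cpb1 at 2.69. Endothelium had 6 of 12 markers kept, 3 of them lower, with sums of 449 on EPA&DHA and 631 on control, while Pecam1 and Vwf lay below the filter. Goblet cells (135182 on EPA&DHA and 169567 on control), Paneth cells (90764 and 108315) and smooth muscle (1412 and 1651) had 0 markers 1.5-fold apart. B and plasma cells had 1 marker higher and 4 lower of 10 kept, with sums of 29835 on EPA&DHA and 26447 on control. Most of these 2 sums came from Jchain (14860 and 11507) and Xbp1 (13585 and 13123), while 7 of the 10 markers were below 0. The part of these cells in the values of the iron genes was not tested.

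**Figure D5:**
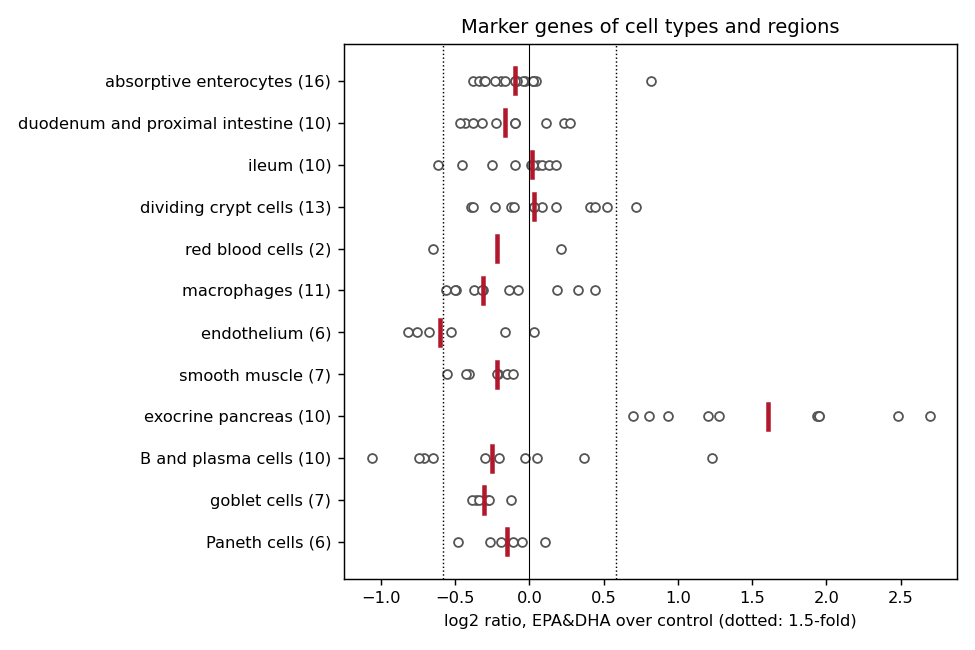
Log2 ratio of EPA&DHA over control for each kept marker gene of 12 cell types and regions, with the number of kept genes in brackets, red bars at the medians and dotted lines at 1.5-fold. The 10 exocrine pancreas genes all lie right of the upper dotted line, and the medians of the other lists lie between -0.60 and 0.03.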

How the data were processed

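Small intestine RNA of mice fed EPA&DHA or control diet was measured on 2 arrays, 1 pool each, so all results are ratios of 1 array to another. The deposited values are MAS 5.0 signal intensities on a linear scale, which the authors summarised per probe set with the Affymetrix default algorithm (version 5.0), and both arrays had a trimmed mean of 500.0 over all probe sets. Genes were taken from the platform annotation in GEO, with symbols brought to RefSeq names. Of 45037 non-control probe sets, 34945 name 1 gene, 932 several and 9160 none, and only the first were used to read a gene. Log2 ratios were computed after scaling to equal trimmed means (2% off each end), with no offset. The brightest 54% by mean log2 signal stayed in (24320), and a gene was read by its brightest kept probe set. Over these the log2 signals of the 2 arrays correlated at r = 0.976 across probe sets, and the robust SD of the ratio was 0.62 over the 6080 dimmest and 0.24 over the 6080 brightest. The number of arrays limits the precision.

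The members and lists were chosen with earlier results of these data known. Named were all member probe sets and the genes 1.5-fold apart in the iron, haem and oxygen lists. Of the cell type and regional lists only some such genes were named, and of all lists only some extremes. Level genes of known role were added after their values were seen. With 2 arrays, likeness of patterns between genes cannot be measured. Scripts used Python 3.11.15, numpy 2.4.6, pandas 2.3.3 and statsmodels 0.14.6 and were tested on simulated data. Scaling, offset, filter, gene rule and threshold were varied. No paired analysis was possible because each diet has 1 array.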

Additional observations from a re-analysis of the deposited data

How the results depend on the processing

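The deposited signals already shared a trimmed mean and gave the same values by construction. Across the 10 other alternatives for 48 results, 334 of 349 values moved by less than the local SD (medians by less than 0.25, counts by no more than 1.5 times), 15 moved further, and 0 values past 1.5-fold changed sign. The median over the iron genes stayed between 0.09 and 0.22, beside -0.07 to -0.01 over all genes. With no filter, 2 iron gene probe sets were at least 1.5-fold higher and 1 lower, the additions being the dim probe sets of Aco1 and Cybrd1. Without probe sets of the _s_at, _x_at and _a_at kinds, 0 were higher, and at a 2-fold threshold 0 were higher. Counts over all kept probe sets moved more: 1083 higher and 1012 lower with an offset of 50, 8430 and 10408 with no filter, 557 and 327 when 50% as many probe sets were kept, and 556 and 624 at a 2-fold threshold, against 1961 and 2161 in the report. The share of higher among these calls was 47.6%, and 53.3% to 55.0% under median centring, quantile normalisation and loess. No paired analysis was possible because each diet has 1 array. With 1 array per diet no replicate could be left out, and what signal limits is the dim probe sets: the ratio of Cybrd1 1460604_at lay between -2.27 and -0.69 and that of Aco1 1447080_at between 0.51 and 1.84 over the settings.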
